A study of Danio rerio with 32 samples.

Results

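A set of 178 array probes out of 5481 moved the same way in zebrafish liver under the high concentration of the organophosphate dichlorvos (DDVP) and after 50 h without food. The members were selected on measured values: a probe entered where the mean of the high group minus the mean of the controls, and the mean of the 50 h group minus the mean of the fed group, had the same sign and were both at least 1.8-fold, or 0.848 on the log2 scale. Of the members, 108 were higher in both comparisons and 70 were lower in both, which is 1.97% and 1.28% of the probes. As both comparisons chose the members, their changes at high DDVP and after 50 h are given as a description, with no test. Through the RefSeq accession of the probe, 116 members carried 1 gene symbol, for 98 genes, 66 of them higher and 32 lower.

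The fish were adult male zebrafish of the Tübingen strain, 6 to 9 months old by their labels, and each array measured the RNA of a pool of 4 to 5 livers. DDVP was given in the water for 24 h at low, mid and high concentrations, which the labels put at 6, 19 and 32 mg/L and the study's methods measured as 6, 16 and 30 mg/L (4 arrays each), beside 8 arrays of unexposed controls in 2 sets of 4. In the nutrient restriction arm, fish received no toxicant and were fed about 4 h before harvest, left unfed for a time labelled 24 h (29 h by the methods), or left unfed for 50 h (4 arrays each). DDVP and control fish were fed on the day the exposure began, and the study describes food left in the tanks at mid and high. Values below are the deposited log2 values unless a signal is named, and after the authors' batch correction each probe has 1 common mean (within 0.0001) in control set 1, in control set 2 and at 24 h, so levels cannot be set against each other between the DDVP and the nutrient restriction arrays.

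DDVP inhibits acetylcholinesterase, the enzyme that clears acetylcholine, and the liver is a main site of its breakdown. A liver that stops receiving nutrients slows the making of fatty acids and releases fuel for other tissues, under control of insulin, glucagon and glucocorticoids. The proteins encoded by the members include immediate early transcription factors, which respond within minutes to hours to many kinds of signal, secreted liver hormones and binding proteins, iron storage proteins, claudins of the tight junction and enzymes of fatty acid and creatine metabolism.

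Of all probes, 4104 probes passed 1.8-fold at high DDVP and 416 after 50 h, while 54 passed both with opposite signs. Among the 108 higher members the median change was 1.92 at high DDVP and 1.38 after 50 h, beside 0.51 and -0.11 over all probes. Among the 70 lower members the medians were -1.55 and -1.02. The high arrays lay wholly above the 8 controls in 94 of the 108 higher members and wholly below them in 64 of the 70 lower ones, where 49.5% and 39.9% of all probes did so. The 50 h arrays lay wholly above the fed arrays in 79 of the 108 and wholly below them in 42 of the 70, where 7.72% and 14.9% of all probes did so. Nothing is read from these shares, which the selection fixes.

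**Figure D1:**
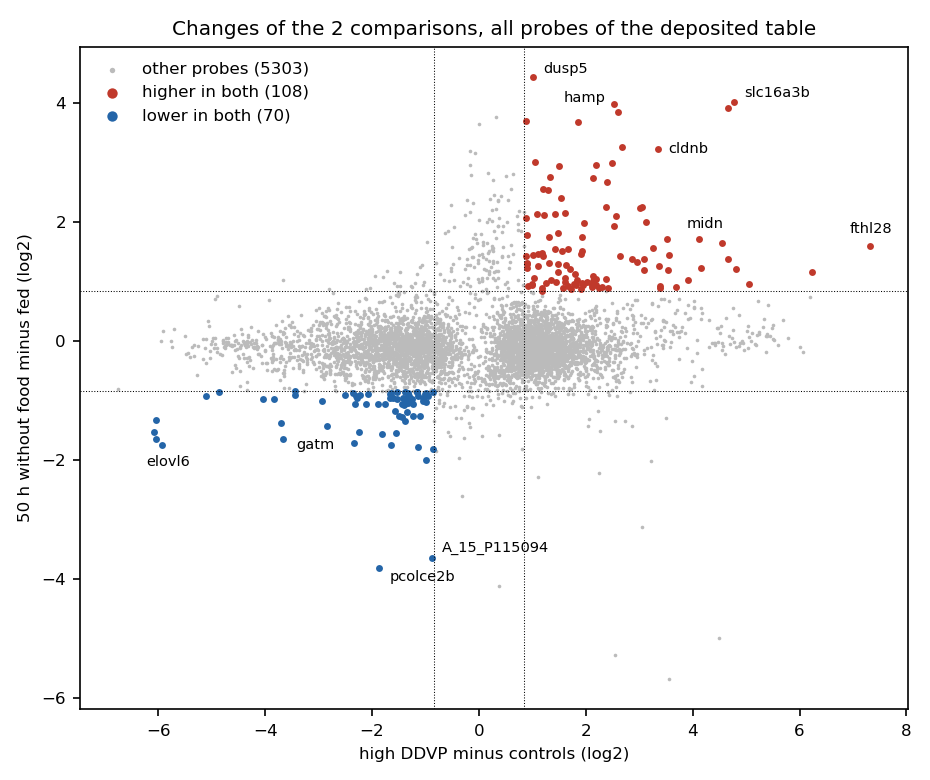
Mean log2 change at high DDVP (x axis, high minus controls) against mean log2 change after 50 h without food (y axis, 50 h minus fed) for the 5481 probes. Red points are the 108 members higher in both, blue points the 70 lower in both, grey points the other 5303 probes, and dotted lines stand at 0.848 in either direction.

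Some of the higher members encode transcription factors and early response regulators. The activating transcription factor gene atf3, which many stresses induce, had 11.55, 11.85, 12.42 and 11.84 at high DDVP, against 7.69 to 11.16 (median 9.23) in the controls. After 50 h it had 9.34, 8.92, 9.23 and 10.29, against 6.75, 5.84, 6.69 and 6.52 in fed fish. Neither pair of groups overlapped, and the controls spread over more than 3 log2 units. The change was 2.49 ± 0.66 at high DDVP and 3.0 ± 0.36 after 50 h (SE, n = 4 arrays per group, controls counted as 4), and it was much the same at every concentration, 2.42 at low and 2.41 at mid.

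The growth regulator gene myca, a MYC homologue, had 9.63, 10.02, 9.73 and 10.77 at high DDVP, against 7.18 to 8.59 (median 7.41) in the controls. After 50 h it had 7.81, 6.75, 7.46 and 8.03, against 4.53, 4.82, 4.66 and 5.33 in fed fish. All high arrays were above all controls and all 50 h arrays above all fed arrays. Its change was largest at low DDVP, 3.40 ± 0.34, beside 3.05 ± 0.38 at mid and 2.40 ± 0.39 at high. The gene midn, for the nuclear protein midnolin, ran the other way, with 0.84 at low, 3.22 at mid and 4.13 at high DDVP, and 1.72 ± 0.26 after 50 h. Its high values of 12.47, 12.73, 12.86 and 12.56 stood against 7.87 to 9.30 in the controls.

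Other members of this kind were chosen for mention after their values were seen, apart from egr3, nfil3 and maff. The zinc finger factor gene egr3 changed by 1.61 at high DDVP and 2.15 after 50 h, the bZIP repressor gene nfil3 by 2.13 and 1.00, and the small Maf gene maff by 3.69 and 0.90. The dual specificity phosphatase gene dusp5, whose product removes phosphate from ERK kinases, had the largest change of all members after 50 h, 4.44 ± 0.51 or 21.7-fold. Its 50 h values were 8.83, 8.17, 8.39 and 10.11, against 4.36, 3.94, 4.26 and 5.17 in fed fish, while its high DDVP values of 9.48, 9.04, 9.87 and 9.13 overlapped the controls (7.52 to 9.44). Of 6 dual specificity phosphatase genes in the table, dusp5 and dusp8a were members. The growth arrest genes gadd45bb (1.49 at high DDVP and 2.94 after 50 h) and gadd45ga (2.41 and 0.88) were members, whereas gadd45aa and gadd45ba passed 1.8-fold at high DDVP and not after 50 h. The antiproliferative gene btg2 (1.18 and 1.49), the ETS factor gene ets2 (1.81 and 0.94) and the ADP-ribosyltransferase gene tiparp (1.49 and 1.29) completed this group of named members.

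Secreted regulators of growth and iron were among the strongest. The product of igfbp1b binds insulin-like growth factors in the blood and limits their action. Its log2 values were 16.57, 16.35, 16.47 and 15.90 at low DDVP, 14.69, 14.58, 14.60 and 14.40 at mid and 14.40, 14.33, 14.38 and 14.60 at high, against 10.72 to 12.02 (median 11.36) in the controls. No exposed array overlapped a control, and the low arrays lay above all mid and high arrays, with a change of 5.02 ± 0.26 or 32.5-fold at low and 3.13 ± 0.22 or 8.73-fold at high. After 50 h igfbp1b had 10.77, 10.70, 11.62 and 11.30, against 10.59, 8.87, 8.74 and 8.19 in fed fish. The groups did not overlap, but the highest fed array was within 0.2 of the lowest 50 h array. The paralogue igfbp1a was no member, since its 3 probes changed by 0.35 to 0.45 after 50 h. After 24 h, however, they changed by 1.31 to 1.48. Like igfbp1b they had their largest DDVP change at low, 2.27 to 3.45, beside 0.63 to 1.98 at high.

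Hepcidin, encoded by hamp, is the liver hormone that blocks iron export from cells. Its values were 13.77, 13.83, 13.64 and 13.67 at high DDVP, against 9.67 to 12.71 (median 11.06) in the controls. After 50 h they were 12.14, 11.29, 11.38 and 12.41, against 8.0, 7.16, 8.03 and 8.63 in fed fish. Both pairs of groups were apart, and both probes of the gene were members, at 2.60 and 2.53 at high DDVP and 3.85 and 3.99 after 50 h. As with igfbp1b, the largest DDVP change of hamp was at low, 3.53 ± 0.68.

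Ferritin heavy chains store iron inside the cell. The genes fthl27, fthl28 and fthl31, which lie in the same run of neighbouring ferritin genes, were members, and the fourth ferritin heavy chain gene in the table, fth1b, was not (-1.42 at high DDVP and 0.04 after 50 h). The probe of fthl28 had 13.92, 14.19, 13.92 and 13.75 at high DDVP, against 5.61 to 8.07 (median 6.58) in the controls, a change of 7.32 ± 0.41 or 160-fold, the largest of all members. After 50 h it had 7.09, 6.39, 6.93 and 7.01, against 6.00, 5.03, 3.68 and 6.30 in fed fish, so the groups were apart by less than 0.1. The changes of fthl31 were 4.55 ± 0.33 at high DDVP and 1.65 ± 0.50 after 50 h. Those of fthl27, named after its values were seen, were 3.26 ± 0.18 and 1.57 ± 0.28. Probes of such near copies may read each other's transcripts, so how the signal divides among the 3 genes is uncertain.

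Feedback inhibitors of cytokine and growth hormone signalling were members as well. The SOCS family gene cisha had 10.03, 10.73, 10.63 and 10.27 at high DDVP, against 7.10 to 9.27 (median 7.53) in the controls. The 50 h arrays had 10.40, 8.42, 8.45 and 10.60, against 6.89, 6.43, 7.83 and 8.34 in fed fish. Replicates 1 and 4 of the 50 h group were about 2 log2 units above replicates 2 and 3, which are the 50 h arrays with a high intestine signal. Among the other arrays with a high intestine signal, replicate 1 at 24 h (9.55) and replicate 4 of the fed group (8.34) were the highest of their groups. Replicate 3 at 24 h, also with a high intestine signal, had 7.17, beside 6.62 and 8.10 on replicates 2 and 4. The part of intestine tissue in these values was not tested. The change of cisha after 50 h was 2.1 ± 0.74, with overlapping 50 h and fed arrays in the second cisha probe (1.93). Without the arrays of high intestine signal it was 3.45 (3.31 in the second probe). That leaves out the lower 50 h arrays, replicates 2 and 3, and the highest fed array. At 24 h the change of cisha was 0.49 ± 0.77. The related gene socs1a, named after its values were seen, changed by 2.18 ± 0.51 at high DDVP. After 50 h it changed by 0.94 ± 0.55 (1.56 without the arrays of high intestine signal), with 50 h and fed arrays that overlapped. The kinase genes pim1 (1.94 and 1.52) and pim3 (2.30 and 0.92, the second 0.55 without 50 h replicate 2) and the receptor genes il20ra (1.71 and 1.21) and il4r.1 (1.17 and 0.89) were further members, named after their values were seen.

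Genes of epithelial junctions formed another group, also put together after the values were seen, except cldnb. The table held 10 genes (12 probes) for claudins, occludin, marvelD proteins and angulins. Of these, 6 genes (8 probes) were members, where 3.25% of all probes were, namely cldnb, cldn3d, cldn7b, oclna, marveld3 and ildr1a. As the values were seen first, nothing is read from this share. The claudin gene cldnb had 10.75, 10.74, 12.19 and 10.23 at high DDVP, against 6.66 to 9.04 (median 7.58) in the controls, a change of 3.35 ± 0.57. The 50 h arrays had 9.08, 6.63, 9.09 and 8.53, against 6.27, 4.23, 4.65 and 5.25 in fed fish, a change of 3.24 ± 0.73. Both pairs of groups were apart, but in the second cldnb probe (2.2 and 2.95) a 50 h array overlapped the fed arrays, and the low DDVP values of 7.40 to 8.21 lay within the range of the controls. The gene cldn3d was the most DDVP-responsive of the group at low, with 1.46 ± 0.26, 3.51 ± 0.27 at mid and 3.56 ± 0.23 at high DDVP, and 1.45 ± 0.27 after 50 h. The gene cldn7b had the reverse balance, 1.04 ± 0.36 at high DDVP and 3.02 ± 0.52 after 50 h. The angulin gene ildr1a was at 1.22 and 2.11, marveld3 at 0.90 and 1.78 and the occludin gene oclna at 2.11 and 0.94. Of the genes that were no members, the claudin genes cldn2 and cldn15lb were lower at high DDVP and higher after 50 h, at -1.0 and 0.32 and at -0.79 and 0.62. The angulin gene ildr2 was at -1.99 and -0.02, and lsr at 0.65 and 0.65.

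Transport and metabolism supplied the rest of the higher genes named. The product of slc16a3b is a monocarboxylate transporter, whose mammalian counterpart exports lactate. It had 10.39, 10.99, 10.88 and 10.97 at high DDVP, against 5.76 to 6.34 (median 6.03) in the controls, a change of 4.77 ± 0.17 or 27.3-fold, while its low values of 6.45, 6.12, 6.04 and 6.21 overlapped the controls. After 50 h it had 6.70, 12.12, 7.81 and 7.39, against 6.34, 3.23, 2.81 and 5.52 in fed fish. Replicate 2 of the 50 h group stood more than 4 log2 units above the others, and without it the change of 4.03 ± 1.5 became 2.82. On the fed arrays the spot was well above background on 2 of 4, so the lower end of this change is poorly measured.

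The phosphatase gene ptp4a3a leaned on the same array, with 9.02, 11.60, 9.09 and 8.54 after 50 h, against 8.08, 7.05, 7.55 and 7.65 in fed fish. Its change of 1.98 ± 0.72 became 1.3 without replicate 2. The liver glutaminase gene gls2b, which releases ammonia from glutamine, was a member with all 3 of its probes, at 1.47 to 1.91 at high DDVP and 1.15 to 1.51 after 50 h. The glycogen-targeting phosphatase subunit gene ppp1r3cb changed by 1.95 ± 0.20 and 0.95 ± 0.27, and the inducible chaperone gene hsp70l by 4.81 ± 0.39 and 1.21 ± 0.49, the second with overlapping arrays. The endothelial lipase gene lipg was named after its values were seen. It changed by 4.74 ± 0.83 at low, 2.63 ± 0.47 at mid and 1.2 ± 0.45 at high DDVP, and by 2.56 ± 0.74 after 50 h. Without a role given here, ankrd22 (3.06 and 2.26), phlda2 (1.85 and 3.68) and LOC571470 (1.94 and 1.75) completed the genes ranked highest. In phlda2 the SE at high DDVP was 0.95, and the high arrays (10.31 to 12.70) overlapped the controls (7.17 to 11.93). The receptor gene for sphingosine 1-phosphate, s1pr1, named after its values were seen, had 0.89 and 3.69.

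**Figure D2:**
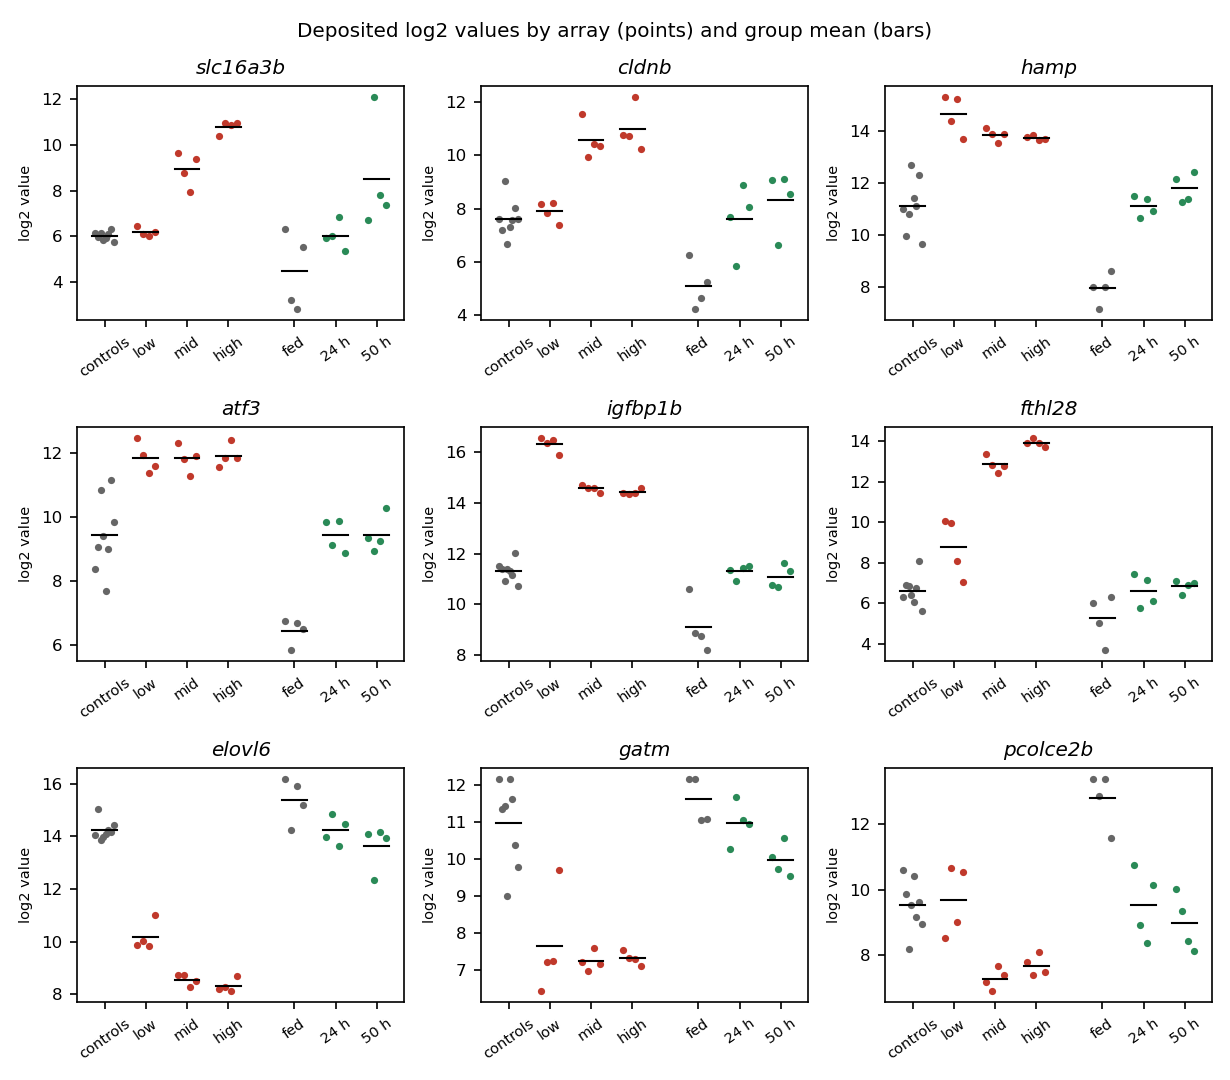
Deposited log2 values of 9 member genes on every array (points) with the group mean (bars), for DDVP from controls to high and for nutrient restriction from fed to 50 h. Each panel has its own log2 axis, and the igfbp1b panel shows low DDVP (15.90 to 16.57) above mid and high, while the slc16a3b panel shows 1 array of the 50 h group at 12.12.

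The lower members included genes of fatty acid and triglyceride synthesis. The elongase gene elovl6, which lengthens palmitate-type fatty acids, had 8.19, 8.27, 8.11 and 8.68 at high DDVP, against 13.87 to 15.03 (median 14.13) in the controls, a change of -5.92 ± 0.23 or 60.6-fold lower. Low DDVP already brought it to 9.87, 10.01, 9.83 and 11.02. After 50 h it had 14.10, 12.35, 14.19 and 13.94, against 16.20, 14.23, 15.92 and 15.21 in fed fish, a change of -1.75 ± 0.62 or 3.35-fold lower. No low, high or 50 h array overlapped the arrays it was set against, though the gap between the highest 50 h array and the lowest fed array was under 0.1. Its second probe gave -6.08 and -1.53.

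The elongase gene elovl2, for long polyunsaturated fatty acids, changed by -1.38 ± 0.33 at high DDVP and -1.04 ± 0.23 after 50 h. The gene dgat2, for the last step of triglyceride synthesis, changed by -1.75 ± 0.30 and -1.07 ± 0.34. The gene mid1ip1b, whose mammalian product activates acetyl-CoA carboxylase, changed by -1.44 ± 0.22 and -1.28 ± 0.33, and 2 of its 3 probes were members. The fatty acid binding protein gene fabp7a had 10.10, 8.69, 8.18 and 9.31 at high DDVP, against 12.25 to 13.13 in the controls, and 13.44, 12.60, 13.60 and 12.94 after 50 h, against 15.05, 14.26, 14.62 and 14.18 in fed fish. Both pairs were apart, at -3.71 ± 0.44 and -1.38 ± 0.30. Of the list of fatty acid synthesis genes, 9 genes with 16 probes were in the table. Of these probes 7, for elovl6, elovl2, dgat2 and mid1ip1b, were members, where 3.25% of all probes were. Over the list 10 probes were lower and 4 higher past 1.8-fold at high DDVP (median -1.46, all probes 0.51), and 11 were lower and 0 higher after 50 h (median -1.06, all probes -0.11). Of all 5481 probes, 1933 were lower and 2171 higher at high DDVP, and 159 were lower and 257 higher after 50 h. The same comparisons chose the members, and the list was chosen with earlier results known. Nothing is therefore read from these shares, counts and medians of the list. The desaturase gene scd was on the list and moved apart. Its 2 probes were at 2.55 and 3.56 at high DDVP and -5.29 and -5.69 after 50 h. The list left out elovl6l and elovl1a. Of 6 elongase genes in the table, elovl6 and elovl2 were members, and of 3 dgat genes dgat2 was. At high DDVP and after 50 h, elovl6l was at 0.07 and 1.42, elovl8b at -2.45 and -0.69 and dgat1a at -2.59 and 0.49. At high DDVP the probes of elovl1a were at -0.56 and -0.17, of elovl5 at -2.06 and -2.19 and of dgat1b at 1.68 and 1.39. After 50 h they were at 1.00 and 0.80, -0.09 and -0.09, and -0.09 and -0.31.

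The creatine pathway genes gatm and ckba were also members. The product of gatm makes guanidinoacetate, the precursor of creatine. It had 7.55, 7.33, 7.31 and 7.11 at high DDVP, against 9.01 to 12.17 (median 11.39) in the controls, and 10.05, 9.73, 10.56 and 9.54 after 50 h, against 12.15, 12.16, 11.05 and 11.08 in fed fish. No array overlapped in either pair, and the changes were -3.66 ± 0.63 and -1.64 ± 0.39. The creatine kinase gene ckba changed by -1.23 ± 0.21 and -1.26 ± 0.15, while its second probe, at -1.7 at high DDVP and -0.83 after 50 h, was no member.

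The gene pcolce2b, for an enhancer of procollagen processing, had the largest negative change after 50 h among the lower members. Its 50 h values were 10.01, 9.33, 8.43 and 8.11, against 13.37, 12.84, 13.39 and 11.58 in fed fish, a change of -3.83 ± 0.61 or 14.2-fold lower. At high DDVP it had 7.77, 7.38, 8.08 and 7.48, against 8.17 to 10.60 in the controls. The groups were apart in both, and at low DDVP its change was 0.14 ± 0.69. The unnamed probe A_15_P115094, singled out after its values were seen, was the only other lower member to pass 3 log2 units after 50 h, with 12.73, 13.43, 13.12 and 12.91, against 16.78, 16.57, 16.68 and 16.76 in fed fish. Its high DDVP arrays (12.01 to 13.70) overlapped the controls (13.43 to 14.13). Its mean processed signal was 21666 after 50 h and 276005 in fed fish.

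The remaining lower genes named were of mixed function. The ammonium transporter gene rh50 was lowest at low DDVP, with 5.21, 6.72, 6.08 and 6.68, against 7.92 to 9.84 in the controls, and its change was -2.80 ± 0.46 at low, -0.90 ± 0.45 at mid and -1.14 ± 0.31 at high DDVP, and -1.78 ± 0.27 after 50 h. The extrusion transporter gene slc47a2.1 changed by -2.33 at high DDVP and -1.71 after 50 h, and the 50 h change was -1.04 without replicate 2 of the 50 h group. The tyrosine phosphatase gene ptpn11b changed by -2.83 and -1.44 in the 1 of its 3 probes that was a member, while the other probes were at -0.59 and -0.55 at high DDVP and -1.54 and -1.6 after 50 h. Further changes at high DDVP and after 50 h were those of the opsin family gene rgrb (-1.39 and -1.35), the mitochondrial gene acad9 (-1.34 and -1.19), the glucocorticoid-induced gene tsc22d3 (-1.10 and -1.27), the activin subunit gene inhbab (-1.40 and -1.07), zgc:153631 (-1.65 and -1.76) and the glycine cleavage gene amt (-1.65 and -0.88). In rgrb, acad9, tsc22d3 and amt at least 1 other probe of the gene was no member. The interferon-stimulated genes ifit8 (-1.54 and -1.54) and rsad2 (-1.01 and -0.90), the latter named after its values were seen, were members too. On all 4 low arrays ifit8 was above the control mean, but these arrays (8.09 to 8.43) overlapped the controls (7.45 to 8.35). The liver genes rgn, for regucalcin (-2.50 and -0.90), ndrg1a (-4.03 and -0.98) and dio1, for a thyroid hormone deiodinase (-3.45 and -0.85), were named after their values were seen or as lying nearest the threshold.

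**Figure D3:**
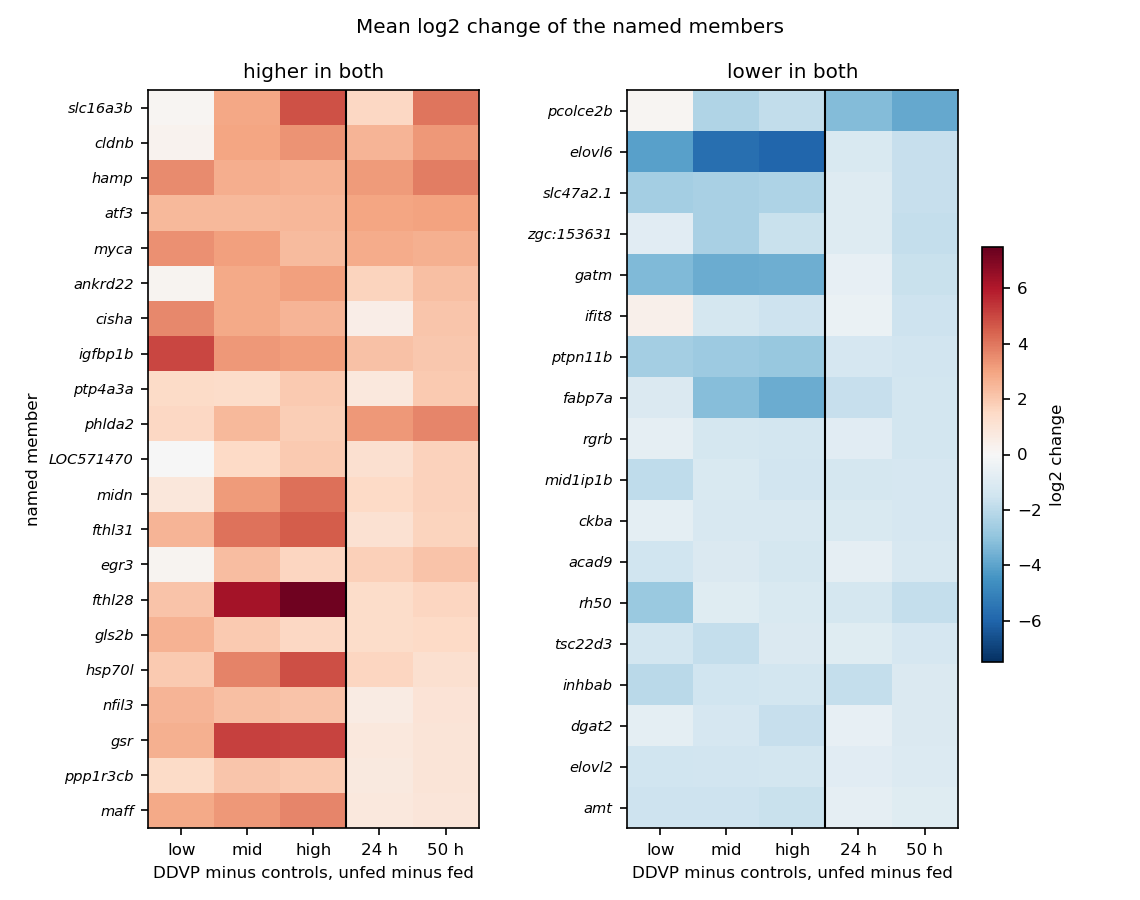
Mean log2 change (colour scale) of the 39 genes named by rank or by gene list, with the DDVP concentrations against controls and the unfed times against fed fish in columns. Left are 21 genes higher in both and right 18 genes lower in both, and igfbp1b, hamp, myca and cisha have their largest DDVP change at low.

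The concentrations and times that did not choose the members share their controls or fed arrays with those that did, so they are set side by side with no test. At low DDVP 58 of the 108 higher members were at least 1.8-fold higher, where 14.0% of all probes were, and 44 of the 70 lower members were at least 1.8-fold lower, where 18.2% of all probes were. Of the other probes past 1.8-fold at high DDVP, 27.9% of the higher and 46.9% of the lower passed at low. At mid DDVP the counts were 100 of 108 and 63 of 70, where 32.1% and 30.8% of all probes passed, and of the other probes past 1.8-fold at high DDVP 75.4% of the higher and 85.1% of the lower did. After 24 h without food 75 of the 108 were at least 1.8-fold higher and 31 of the 70 at least 1.8-fold lower, where 3.92% and 3.25% of all probes were, and of the other probes past 1.8-fold after 50 h 67.8% and 64.0% passed. The change grew with each concentration in 61 of the 108 and 36 of the 70, and it was largest at low in 14 and 17. It was larger after 50 h than after 24 h in 83 and 57. The 50 h arrays lay wholly beyond the 24 h arrays in 2 and 5, and wholly nearer to the fed arrays in 0 and 2. Selection on the high and 50 h changes favours a larger change in those groups. The shares of all probes with these orders and overlaps were not counted, so nothing is read from the counts of them among members.

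The low and mid arrays did not enter the selection, and the step from low to mid DDVP asked whether these probes still moved between those concentrations. After the batch correction, which gave both control sets 1 mean, their values are still relative to control means that the selection used, and the labels do not say which control set ran with which concentration. In limma with Benjamini-Hochberg adjustment over 5481 probes, 20 of the 108 higher members were called higher at mid than at low (adjusted p of at most 0.001 and at least 1.8-fold), where 9.41% of all probes were, and 1 was called lower. Of the 70 lower members, 14 were called lower, where 9.34% of all probes were, and 1 was called higher. Of the other probes past 1.8-fold at high DDVP, 21.5% of those higher were called higher and 25.2% of those lower were called lower, so the shares of 18.5% and 20% among the members were near those of other probes that DDVP moved. This fit on 8 arrays leaves out the spread of the controls, whose SD was 1.17 in atf3 and 1.04 in hamp. In a further fit mid was set against 1 control set and low against the other (limma, 16 arrays, a choice made after seeing the data). The differences stayed as they were. In it 12 of the 108 higher members were called higher, where 3.96% of all probes were, and 7 of the 70 lower members lower, where 4.63% were. Other probes past 1.8-fold at high DDVP were called in 9.31% of the higher and 12.6% of the lower, near the members' shares of 11.1% and 10%. The p-values measure the spread between arrays of pooled livers, and the table holds only probes that the authors picked on all these arrays together.

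The ferritin gene fthl28 was higher at mid than at low by 4.08 ± 0.59 (SE, limma adjusted p = 0.000308, n = 4 arrays each), with mid values of 13.37, 12.84, 12.45 and 12.81, against 10.08, 9.96, 8.07 and 7.06 at low, and fthl31 was higher by 1.53 ± 0.24 (limma adjusted p = 0.000449). The claudin gene cldnb was higher by 2.66 ± 0.32 (limma adjusted p = 0.000118), with 11.53, 9.93, 10.41 and 10.36 at mid, against 8.17, 7.84, 8.21 and 7.40 at low, and cldn3d and oclna were higher by 2.05 and 2.12. The second cldnb probe, at 1.57, missed the threshold (limma adjusted p = 0.00188). The transporter gene slc16a3b was higher by 2.74 ± 0.31 (limma adjusted p = 9.6e-05), with 9.67, 8.79, 7.96 and 9.38 at mid, against 6.45, 6.12, 6.04 and 6.21 at low. Further genes called higher were midn, ankrd22, LOC571470, igsf3l, zgc:153911 and the glutathione reductase gene gsr. In all of these the mid arrays lay wholly above the low arrays. With the spread of the controls counted, fthl28 (limma adjusted p = 0.00102), fthl31 (limma adjusted p = 0.0155), cldnb (limma adjusted p = 0.00179), gsr and igsf3l missed the threshold, while slc16a3b, cldn3d, oclna, midn, ankrd22, zgc:153911 and LOC571470 were still called.

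The gene igfbp1b was the 1 higher member called in the other direction, lower at mid than at low by -1.75 ± 0.16 (limma adjusted p = 4.02e-05). Among the lower members fabp7a (-2.14 ± 0.16, limma adjusted p = 1.61e-05), elovl6 (-1.63 ± 0.25, limma adjusted p = 0.000456), ifit8, dio1, rnf34a and slc43a1b were called lower. For rnf34a this holds for its member probe, while its other probe changed by -0.05 at low and -0.18 at mid DDVP. With the spread of the controls counted, igfbp1b, fabp7a, ifit8, dio1 and slc43a1b were still called, and elovl6 (limma adjusted p = 0.00256) and rnf34a were not. The difference was small in atf3 (-0.01 ± 0.27), ptp4a3a (-0.07 ± 0.33) and amt (-0.01 ± 0.20), and in rh50 it was 1.90 ± 0.39, which missed the threshold (limma adjusted p = 0.00191). With lipg at -2.11 ± 0.61 (limma adjusted p = 0.0116) and hamp at -0.80 ± 0.32 (limma adjusted p = 0.051), neither of these genes with their largest DDVP change at low was called.

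**Figure D4:**
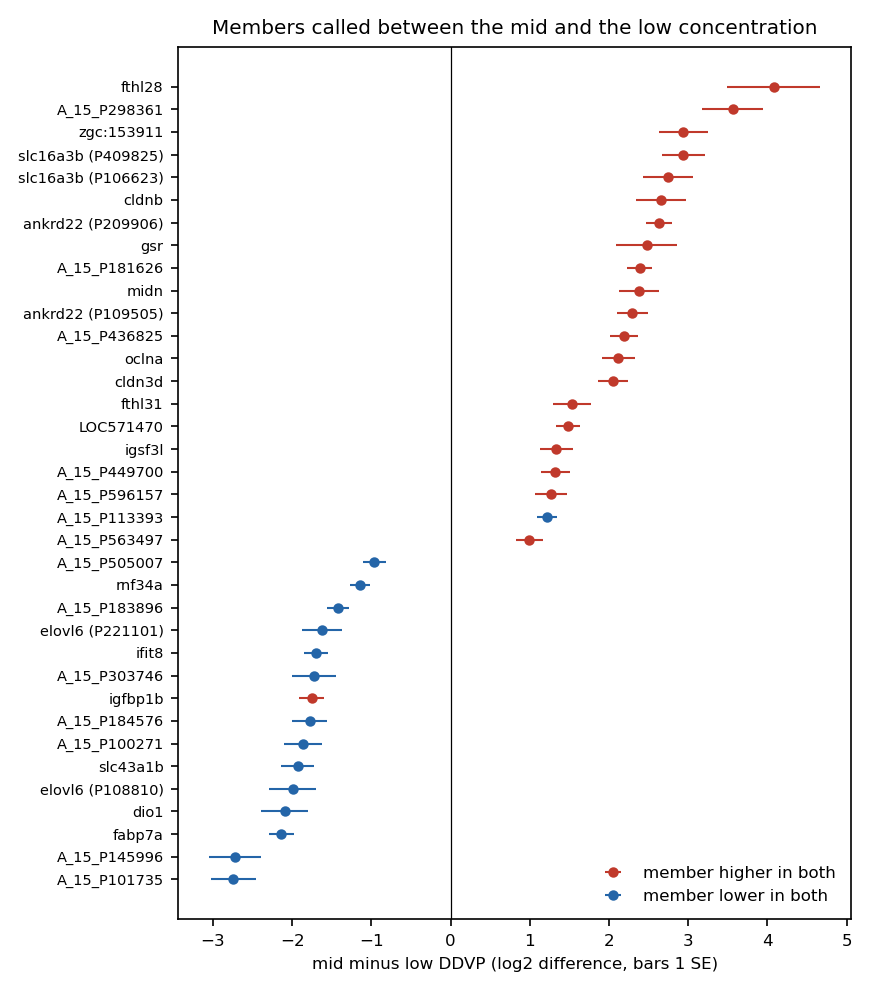
Mid minus low DDVP (x axis, log2 difference with 1 SE) for the 36 member probes called in limma, red for members higher in both rule comparisons and blue for members lower in both. The highest is fthl28 at 4.08, and igfbp1b at -1.75 is the 1 red point below 0. A probe number follows the symbol where a gene has 2 called probes.

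The tissue label and the arrays were checked on the scanner files of the 12 nutrient restriction arrays. All 10 hepatocyte marker genes on the array were well above background on all 12 arrays. Of the intestine list (10 of 15 genes on the array), vil1 and fabp2 stood out on 5 arrays. These were replicates 2 and 3 at 50 h, 1 and 3 at 24 h and 4 of the fed group. There the vil1 signal was 5943 to 26096, beside 113 to 435 on the other 7. The intestine gene chia.1 had 1453 on replicate 1 at 24 h, near the 924 of replicate 1 at 50 h, outside the 5. On the others of these 5 it had 8744 to 68158. The summed signal of the list overlapped between 50 h (203662 to 340493) and fed fish (206604 to 254873). A high intestine signal thus means high vil1 and fabp2 only. On replicate 2 at 50 h the muscle actin gene actc1a had 76593, beside 22 to 227 on the other 11. The leukocyte list had 9 of 18 genes on the array, 6 of them well above background on all 12 arrays and rag1, rag2 and csf1ra not, and its summed signal was 24775 to 46450 after 50 h and 11801 to 23922 in fed fish. The exocrine pancreas list (24 of 37 genes on the array) summed to 216886 to 592199 after 24 h and 209545 to 1446910 after 50 h, against 723042 to 1346010 in fed fish, so the 24 h arrays lay wholly below the fed arrays. In such bulk samples fewer cells of a type and less RNA per cell cannot be told apart. The part of these tissues in the changes of the regulators, cytokine genes and junction genes was not tested. The marker lists of leukocytes, pancreas and muscle have 0 probes in the deposited table, and that of intestine has 1 gene with 2 probes, so nearly all of these markers could not be members.

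The arrays of high intestine signal were left out, a choice made after seeing the data. In this comparison they were replicates 2 and 3 at 50 h and replicate 4 of the fed group. Without them the change after 50 h kept its sign in all 108 and all 70 members and passed 1.8-fold in 102 and 48. With the rule applied to the arrays left in, 209 probes qualified, 150 of them members. The junction gene cldnb was then at 3.76, cldn7b at 3.56 and dusp5 at 5.28, all larger than with every array, and oclna at 1.62. The glutathione reductase probe of gsr dropped to 0.22, a gene of which 1 of 4 probes was a member, ptp4a3a to 1.22 and mid1ip1b to -0.83 and -0.72 in its 2 member probes. Without replicate 2 of the 50 h group alone, 104 and 54 members passed 1.8-fold. Within the 3 slides that held the arrays, the sign was the same in every slide in 96 of the 108 and 64 of the 70. Each slide held 1 or 2 arrays of the 50 h group and 1 or 2 of the fed group. The counts of this paragraph re-use the arrays that chose the members. That favours kept signs, so nothing is read from these counts.

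**Figure D5:**
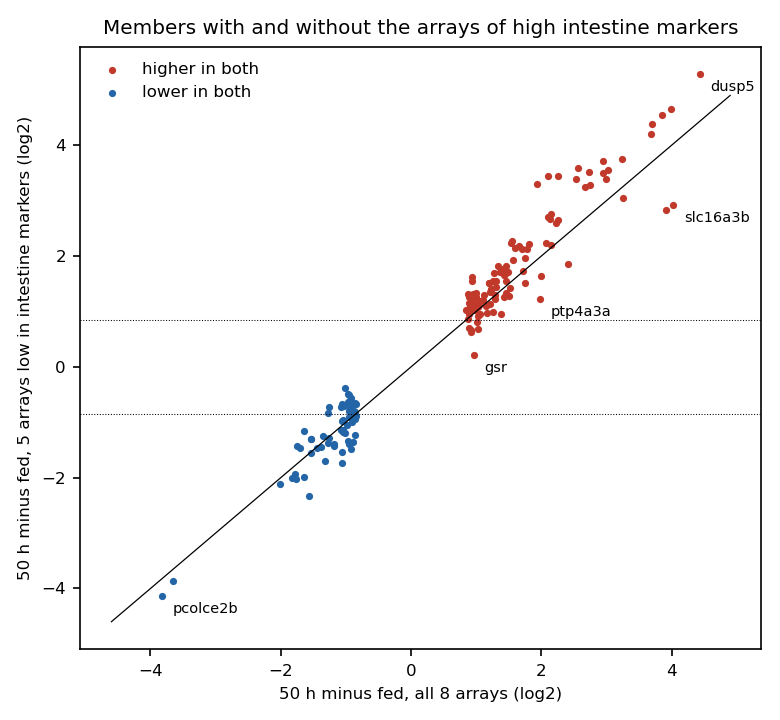
Change after 50 h without food (50 h minus fed, log2) of the 178 members from all 8 arrays (x axis) and from the 5 of these arrays with low vil1 and fabp2 (y axis), with the line of equal values and dotted lines at 0.848. Most points keep near the line, while slc16a3b, ptp4a3a and gsr lie below it.

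Detection and probe choice touched some members. On the 50 h arrays all 108 higher members were well above background on 4 of 4 arrays, and on the fed arrays 98 were, the other 10 being seen on 1 to 3 arrays, among them slc16a3b, LOC571470, gadd45bb, mcm10 and bcl3. Of 37 member genes with more than 1 probe in the table, 16 had every probe among the members, 21 had a probe that was no member, and in 1 gene, stard14, a probe had the opposite sign in 1 of the changes. For slc43a1b the member probe changed by -1.01 after 50 h, while its other probes were at -0.08 and -0.10.

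The list of insulin and FOXO target genes had 17 genes in the table, with igfbp1b and ppp1r3cb as members (2 of 28 probes). The glutathione list had 17 genes, with gsr and maff as members (2 of 27 probes). The amino acid breakdown list had 26 genes, with gls2b and amt (4 of 39 probes). The lists of the integrated stress response, of chaperones, of the clock and of acute phase genes had 1 member gene each. These were atf3 (1 of 23 probes), hsp70l (1 of 25), nfil3 (1 of 11) and hamp (2 of 11). Over all probes 3.25% were members, so nothing is read from these counts. The fatty acid oxidation list had 30 of its 32 probes at least 1.8-fold lower at high DDVP and 0 past 1.8-fold after 50 h, and so 0 members. The mitochondrial gene acad9, a member, was not on this list. The proteasome list (40 probes, 38 higher at high DDVP) and the ribosome biogenesis list (41 probes, 34 higher) had 0 members likewise, with 0 probes past 1.8-fold after 50 h. Of all 5481 probes, 1933 were lower and 2171 higher past 1.8-fold at high DDVP, and 416 passed after 50 h. With 3.25% of all probes as members, nothing is read from 0 members in lists of this size.

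The edge of the selection is thin. The higher members nearest the threshold were hnf1bb (0.85 after 50 h), A_15_P201961 (0.87) and crlf3 (0.88), and just outside it lay A_15_P391090 (0.84 after 50 h), A_15_P516947 (0.84 at high DDVP) and A_15_P102331 (0.84 at high DDVP). The lower members nearest it were dio1, A_15_P104038 and thyn1 (each -0.85 after 50 h), and just outside lay tgfbi (-0.85), dhrs3b (-0.84) and the glucose transporter gene slc2a2 (-0.84). These values differ by far less than the SE of a change.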

How the data were processed

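Log2 values for 5481 probes and 32 arrays were taken from the table as deposited. To make it, the authors quantile normalized the signals, converted them to log2, corrected for the batch with Partek Genomics Suite and kept probes differing between groups (false discovery rate 0.001). DDVP slides were scanned with GenePix at 2 laser powers and the others with an Agilent scanner, whose deposited files give intensity values for each spot. A whole-array comparison of the DDVP arrays was not analysed here. Members were found with numpy 2.4.6 and pandas 2.3.3 on the deposited values, and mid minus low DDVP was tested on those 8 arrays with limma 3.58.1 (lmFit, eBayes) in R 4.3.3, with p adjusted by Benjamini-Hochberg. On simulated data for this comparison (5481 probes, 100 changed probes of each size), it found 37 at a log2 change of 1 and 89 at 2, with 0 false calls. The simulation changed fewer probes than were called in the data (516 higher, 512 lower) and drew independent noise. It left out the spread of the controls, so it does not measure false calls from that spread. The SE of a change counts the 8 controls as 4, since both sets share 1 mean. The methods name the median signal, but the deposited values of the nutrient restriction arrays follow the processed signal. Processed signals and the well-above-background flag came from the scanner files. Array medians lay between 9.52 and 9.78 in the table, and the share of spots flagged well above background ran between 48.9 and 56.7%.

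Symbols came from RefSeq accessions and a table of zebrafish genes of assembly GRCz12tu, used for names and neighbours only, so 3295 of the 5481 probes had 1 symbol. Named by rule were the first 15 genes in each direction by the smaller of both changes and the member genes of the gene lists. The probes nearest the threshold were named too. All other members were named after their values were seen. The members and lists were chosen with earlier results of these data known. Promoter and protein sequences were not analysed here. Alternatives were other thresholds, centring, control sets, scanner signals, slides, a replicate block, the spread of both control sets and arrays left out in turn.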

Additional observations from a re-analysis of the deposited data

Results flagged for a closer look

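Single arrays stood far from the other 3 of their group in 35 of the 568 groups of 4 arrays tested for the 71 named members, where chance gives about 1 in 20. This is near that rate, so nothing is read from single flags. The log2 values of those arrays are given by group, with no explanation tested. At low DDVP the arrays that stood apart were LOC571470 on replicate 2 (5.974, the highest), elovl6 on replicate 4 (11.02, the highest), rgrb on replicate 1 (8.174, the lowest), nfil3 on replicate 3 (9.35, the lowest) and tiparp on replicate 2 (8.832, the highest). At mid DDVP the arrays that stood apart were rh50 on replicate 3 (9.081, the highest), gsr on replicate 2 (12.32, the lowest), crlf3 on replicate 2 (11.21, the lowest), il20ra on replicate 4 (7.801, the lowest), s1pr1 on replicate 1 (11.53, the highest) and mcm10 on replicate 3 (10.86, the highest). At high DDVP the arrays that stood apart were ankrd22 on replicate 1 (10.54, the lowest) and ptp4a3a on replicate 3 (10.99, the highest). In control set 1 the arrays that stood apart were myca on replicate 3 (8.594, the highest), ankrd22 on replicate 3 (9.048, the highest), elovl6 on replicate 2 (15.03, the highest), ptpn11b on replicate 1 (11.04, the lowest), elovl2 on replicate 3 (11.78, the lowest), gadd45bb on replicate 3 (7.091, the highest), tiparp on replicate 4 (6.79, the lowest) and pim3 on replicate 2 (6.857, the highest). In control set 2 the arrays that stood apart were slc47a2.1 on replicate 4 (9.158, the highest), mid1ip1b on replicate 1 (10.67, the lowest) and dusp8a on replicate 1 (6.35, the lowest). After 24 h without food the arrays that stood apart were egr3 on replicate 2 (5.251, the lowest), elovl2 on replicate 1 (11.6, the lowest), hnf1bb on replicate 4 (9.858, the highest) and pim1 on replicate 4 (10.72, the lowest). After 50 h without food the arrays that stood apart were elovl6 on replicate 2 (12.35, the lowest), rgrb on replicate 4 (9.372, the highest), maff on replicate 2 (8.849, the lowest), marveld3 on replicate 2 (6.417, the lowest) and btg2 on replicate 4 (9.576, the highest). In fed fish the arrays that stood apart were zgc:153631 on replicate 2 (12.05, the lowest) and maff on replicate 1 (8.978, the highest).

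The interferon-stimulated gene ifit8 lay on opposite sides of the control mean at low and high DDVP, with a change of 0.36 ± 0.21 at low and -1.54 at high. Every low array was above the mean and every high array below it, but the low arrays (8.09 to 8.43) overlapped the controls (7.45 to 8.35). The difference between low and high was not tested.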

How the results depend on the processing

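The number of members followed the fold threshold. Beside 3.25% of the probes at 1.8-fold, 1.95% qualified at 2-fold, 74 higher and 33 lower, and 6.93% at 1.5-fold, 172 higher and 208 lower. With arrays centred on their median 162 qualified, 46 of them lower. Scanner signals gave 126 (normexp) to 199 (75th percentile) members, and the slide block 179. Leaving out 1 array at a time gave 2.9% to 3.38% of the probes, 98 to 113 higher and 60 to 81 lower. For mid minus low DDVP, leaving out 1 array gave 277 to 423 probes called higher and 264 to 471 called lower, and among the members 14 to 19 higher members called higher, 1 to 2 called lower, 10 to 16 lower members called lower and 1 to 2 called higher. With all 20 DDVP arrays in the fit, 3 lower members were called higher. Same-numbered low and mid arrays correlated at 0.0691 to 0.196, and 4 of 8 correlated best with their own number, so the numbers were not taken as pairs. With the replicate block 444 probes were called higher and 472 lower, among them 23 higher members and 14 lower members in their own direction. Mid minus low changed sign on leaving out 1 array in atf3 (-0.17 to 0.20), ptp4a3a (-0.45 to 0.11), slc47a2.1 (-0.19 to 0.41), gatm (-0.81 to 0.27), elovl2 (-0.13 to 0.20), amt (-0.14 to 0.099), crlf3 (-0.14 to 0.45), A_15_P104038 (-0.11 to 0.23), fthl27 (-0.28 to 0.0028) and socs1a (-0.085 to 0.57), all of them not called. It was -0.0014 for elovl2 with centred arrays. Calls of single genes with arrays left out were followed for 71 members only, without igsf3l and rnf34a. Of 8 single arrays left out, 6 ended the call of fthl31 (1.3 to 1.71 over all of them), 6 that of gsr (2.13 to 2.86), 4 that of elovl6 (-1.75 to -1.35), 3 that of fthl28 (3.5 to 4.51) and 2 that of dio1 (-2.32 to -1.84). With the spread of both control sets counted, added after seeing the data, 217 probes were called higher and 254 lower in limma, among them 12 higher members called higher, 7 lower members called lower and 0 lower members called higher. At an unadjusted limma p under 0.05, 6 of the 70 lower members (8.57%) were higher at mid, beside 18 of the 1863 other probes lower at high DDVP (0.966%). In 3 of the 108 higher members (2.78%) mid was lower, beside 16 of 2063 other probes higher at high DDVP (0.776%). At the call threshold of the same fit, 0 of the 70 and 0 of the 1863 were called higher. Of the 108 and the 2063, 1 and 4 were called lower. These shares count probes, so a gene with 2 probes can enter more than once. The difference between these shares was not tested. Within single slides, the change after 50 h was -1.14 for gsr (slide 1), -0.46 for gadd45ga (slide 2), and 0.18 for thyn1, -0.053 for oclna and -0.17 for socs1a (slide 3). The cause of these shifts was not tested. With 4 arrays per group, the number of arrays limits the precision.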
